A study of Danio rerio with 8 samples.

Results

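Neighbouring transcription start regions on one strand, close enough to be alternative starts of one transcription unit, were described as pairs in whole zebrafish embryos (Danio rerio). CAGE (cap analysis gene expression) sequences the capped 5′ ends of RNAs, so each cluster of tags marks a place where transcription starts. Regions were chosen by their level and position: tag clusters had to be found in both deposited cluster lists and to reach a mean of at least 5 RPM (tags scaled to the total of the library) over the 8 libraries. Pairs were chosen by distance, as consecutive regions of one strand with a gap of 100 to 1000 bases. Of 42130 merged regions, 23602 were covered by both lists and 11886 reached the level. They formed 11704 consecutive same-strand pairs, of which 480 (4.10%) had such a gap. These 480 close pairs used 858 regions (7.22% of the 11886).

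The sa37 groups were embryos with the sa37 allele of jam3b, at 12 and at 16 hours post-fertilization (hpf), and the WT groups were wild-type embryos at the same stages. Each of the 4 groups had 2 libraries, and no further allele or treatment is given in the labels. The labels do not state whether sa37 embryos were homozygous, which strain WT embryos came from or how many embryos were pooled. Nor do they state whether the libraries of a group came from separate clutches. The p-values therefore measure only spread between these libraries, which may be technical. In the reported fits, a difference between the 2 libraries of a group that is common to all groups was taken out first. jam3b encodes a junctional adhesion molecule known in zebrafish for its part in the fusion of muscle precursor cells, and both stages lie in the period when somites form. The start of jam3b itself and marker genes of tissues were not analysed here, because the files give regions by coordinates without gene names.

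Many animal genes have more than one promoter. A start further upstream usually lengthens the first exon or adds another one, which can change the 5′ untranslated sequence or the protein's first residues, and the choice between starts is known to change during development. In zebrafish, maternal and zygotic transcripts of one gene can begin at different positions. In CAGE data of whole embryos a shift between starts can come from cells that switch or from a change in the number of cells of each kind, and these cannot be told apart. Close same-strand clusters can also be one broad promoter cut into pieces by the clustering method.

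The share of a pair is the percentage of its RPM at the upstream start, upstream being set by the strand. Replicate 1 of each group belongs to one cluster list and replicate 2 to another, made and normalized separately, so the replicate number and the list cannot be told apart. The distinct clusters held between 10662467 and 15830698 tags per library in replicate 1 and between 16938015 and 23300915 in replicate 2. A floor of 3 tags was 0.173 to 0.256 RPM in replicate 1 and 0.125 to 0.172 RPM in replicate 2, for counting error only, since tags carry no molecular identifiers. In replicate 1 no value lay between 0 and 0.51 RPM.

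The pairs were spread over all 25 chromosomes (478 pairs) with 2 on other sequences, 231 on the plus and 249 on the minus strand. Close pairs made up between 1.06% of the pairs of chromosome 12 and 6.57% of those of chromosome 19. The gap had a median of 551 bases. Most starts belonged to a single pair: 312 pairs stood alone, and the others were linked in 66 chains of 3 or more regions, the longest with 7, through 102 regions that were the downstream start of one pair and the upstream start of the next. Linked pairs share a start and are not independent. The 858 regions held 23.4 to 27.3% of the RPM of all regions that reached the level, in every library.

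Members near the bounds of the rule show what it left out. The weakest start inside the level was at 5.003 RPM, in a pair on chromosome 20 from 31375542 to 31377135, and the strongest outside was at 4.984 RPM, on chromosome 15 from 1874211 to 1874891. The shortest gap inside was 101 bases, on chromosome 19 from 20616533 to 20617290, and the nearest one outside was 97 bases, on chromosome 7 from 6293136 to 6293248. The longest gap inside was 1000 bases, on chromosome 25 from 34628404 to 34629431, and the nearest outside 1006 bases, on chromosome 12 from 38382026 to 38383348. The mean over all libraries also admits a start that is low in one group. In 44 pairs a start averaged under 5 RPM in one genotype, and in 64 pairs in one stage.

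The upstream start was usually the stronger of the 2. It had the higher mean RPM in 301 of the 480 pairs (62.7%), against 49.6% of all 11704 pairs. The median mean level was 37.4 RPM at upstream starts and 17.0 RPM at downstream starts. The stronger start exceeded the weaker one 2.65-fold in the median, and in 336 pairs the weaker start held at least 10% of the pair. The upstream start led in 60.7% of 211 pairs with gaps up to 500 bases and in 64.3% of 269 pairs with longer gaps. Weaker starts were also narrower: their clusters had a median length of 54 bases in list 1 and 37 in list 2, against 74 and 58 at the stronger starts and 82 and 86 at the 11028 regions in no close pair. The part of level in these lengths was not tested.

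**Figure D1:**
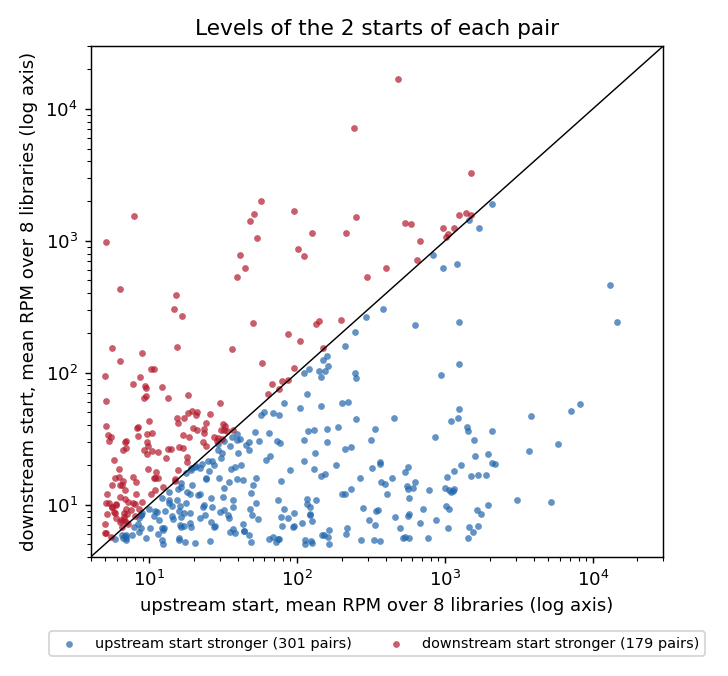
Mean RPM of the upstream start (horizontal, log axis) against the downstream start (vertical, log axis) of each of the 480 close pairs, one point per pair, averaged over the 8 libraries, with the line of equal levels. The upstream start was stronger in 301 pairs, below the line, and the downstream start in 179, above it.

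Most pairs kept one stronger start. The upstream share was over 50% in all 8 libraries in 241 pairs and under 50% in all 8 in 123, while 116 pairs had libraries on both sides. The median share over pairs lay between 57.7 and 59.9% in every library, so no group stood apart. Between libraries of one cluster list, the share differed by a median of 1.54 percentage points between sa37 and WT of one stage, and by 1.55 points between 16 and 12 hpf of one genotype. Over all 11704 pairs the same medians were 3.52 and 4.54 points. The replicates of a group, which come from different lists, differed by a median of 4.02 points. The mean share differed between the lists by at least 20 points in 48 pairs and by at least 50 points in 7, and the stronger start was not the same in the 2 lists in 60.

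The first comparison asked whether the choice between neighbouring starts differed between sa37 and WT. It changed in a small number of pairs and in both directions. The measure was the balance, log2((upstream RPM + 1)/(downstream RPM + 1)), in which a positive difference is a shift towards the upstream start. limma, fitted to all 11704 pairs with the replicate number as a block, called a pair at a Benjamini-Hochberg adjusted p under 0.05. Averaged over the stages, 27 close pairs were called (5.62%), against 9.04% of all pairs. Of these, 15 shifted in sa37 towards the upstream start (4.42% of all pairs did) and 12 towards the downstream start (4.62% of all pairs did). Over the 480 pairs the median size of the difference was 0.122, with a median standard error of 0.141, against 0.215 and 0.151 over all pairs. At 12 hpf alone 8 close pairs were called (3.3% of all pairs), and at 16 hpf alone 3 (1.67% of all pairs).

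The change in share of the 27 called pairs ran from 0.557 to 35.7 percentage points with a median of 14.4, and 7 shifted by at least 20 points. A call rests on the differences within each list and so favours pairs with one sign. All 27 had one sign in 4 of 4 library pairs of the same stage and list. Pairs named below for a small adjusted p had to meet this, so one direction within each list was part of their choice. In 13 of the 27 the downstream start alone was called by itself, in 6 the upstream start alone, in 2 both and in 6 neither. They lay on 16 chromosomes, with 3 on chromosome 4, and 7 had a start under 5 RPM in one genotype. The fit without the block called 2 of them (0.863% of all pairs). edgeR's test of start usage on the recovered tags, run with the block, called 42 close pairs (14.1% of all pairs), 20 of them among the 27. Leaving out any 1 of the 8 libraries lowered the count to between 9 and 17, and 5 pairs were called in all 8 of those fits.

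The shift towards the downstream start with the smallest adjusted p in sa37 lay on the plus strand of chromosome 21, with the upstream region at 3013270 to 3013341 and the downstream one at 3013808 to 3013924. In replicates 1 and 2 the upstream share was 82.4 and 70.8% in sa37 at 12 hpf and 80.5 and 71.1% in sa37 at 16 hpf, against 98.4 and 95.5% in WT at 12 hpf and 98.0 and 95.4% in WT at 16 hpf. The genotypes did not overlap. The downstream start was at 226 and 746.5 RPM in sa37 at 12 hpf and 243 and 547 RPM in sa37 at 16 hpf, against 15.4 and 77.7 RPM in WT at 12 hpf and 16.6 and 65.3 RPM in WT at 16 hpf. It rose by 3.47 on the log2 scale (SE 0.18, limma adjusted p 0.000352). The upstream start, at 1005 to 1808 RPM in sa37 and 814 to 1654 RPM in WT, gave a difference of 0.15 (SE 0.11, limma adjusted p 0.471). The balance fell by 3.32 (SE 0.15, limma adjusted p 0.000199) and was called under all 16 alternatives that could be fitted (adjusted p 1.63e-07 to 0.0473).

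A pair on the plus strand of chromosome 15 (37688171 to 37688230 and 37689125 to 37689142) had a downstream start that was almost absent from WT. It was at 10.8 and 20.04 RPM in sa37 at 12 hpf and 12.9 and 27.1 RPM in sa37 at 16 hpf, against 1.65 and 0 RPM in WT at 12 hpf and 0 and 0.042 RPM in WT at 16 hpf. The value of 0.042 RPM lies under the floor of 0.126 RPM of that library, and the 0 in replicate 2 of WT at 12 hpf lies under its own. Replicate 1 of WT at 16 hpf holds no value between 0 and 0.55 RPM. Its listed 0 thus cannot be set against its floor of 0.184 RPM. The share of the upstream start was 64.6 and 67.0% in sa37 at 12 hpf and 68.6 and 64.1% in sa37 at 16 hpf, against 93.2 and 100% in WT at 12 hpf and 100 and 99.9% in WT at 16 hpf. The pair's balance fell by 3.64 (SE 0.37, limma adjusted p 0.0041, called under all 15 alternatives, adjusted p 0.00087 to 0.0284). Its upstream start, at 19.6 to 48.5 RPM in sa37 and 22.6 to 37.0 RPM in WT, gave 0.13 (SE 0.12, limma adjusted p 0.548). The downstream start averaged 0.423 RPM in WT and passed the level of 5 RPM only through sa37, so a difference was built into its choice.

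A pair on the plus strand of chromosome 4 (76320718 to 76320741 and 76321176 to 76321183) had upstream shares of 89.0 and 66.6% in sa37 at 12 hpf and 90.2 and 67.0% in sa37 at 16 hpf, against 98.3 and 86.6% in WT at 12 hpf and 96.7 and 85.0% in WT at 16 hpf. Within each cluster list sa37 lay below WT at both stages, which the choice of named pairs required, and over all libraries the ranges overlapped. The balance fell by 1.81 (SE 0.20, limma adjusted p 0.00591), but the call was lost without the block, where the adjusted p of 0.731 was the highest of 14 alternatives (lowest 0.00239). The upstream start fell by 1.04 (SE 0.17, limma adjusted p 0.019). In replicate 1 it was at 98.9 to 109 RPM in sa37, against 125 to 284 RPM in WT. In replicate 2 it was at 18.4 to 22.1 RPM, against 43.9 to 54.2 RPM. The downstream start gave 0.76 (SE 0.21, limma adjusted p 0.0859) and was not called. It was at 9.09 to 13.5 RPM in sa37, against 4.22 to 8.40 RPM in WT. The downstream region, at a mean of 8.69 RPM, ends just before a much stronger one of the same strand. That region, at 76321207 to 76321458, averaged 12990 RPM and is not part of this share or balance.

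On the plus strand of chromosome 8 (23173002 to 23173139 and 23174065 to 23174069) both starts rose in sa37, the downstream one by 1.92 (SE 0.21, limma adjusted p 0.00496) and the upstream one by 0.73 (SE 0.12, limma adjusted p 0.0214). The upstream share was 76.8 and 62.7% in sa37 at 12 hpf and 68.7 and 58.8% in sa37 at 16 hpf, against 100 and 83.1% in WT at 12 hpf and 83.4 and 80.7% in WT at 16 hpf. All 4 sa37 shares were below all 4 WT shares. The 100% is a listed 0 at the downstream start beside 5.96 RPM upstream, in a library with no value between 0 and 0.55 RPM. In replicate 1 the downstream start was at 2.48 to 4.68 RPM in sa37, against 0 to 1.22 RPM in WT. In replicate 2 it was at 19.8 to 32.3 RPM, against 4.16 to 4.79 RPM. The downstream start averaged 2.54 RPM in WT and passed the level only through sa37, so a difference was built into its choice. Its balance fell by 1.20 (SE 0.18, limma adjusted p 0.0165). This call was lost without replicate 2 of sa37 at 12 hpf (0.0623), replicate 1 or 2 of sa37 at 16 hpf (0.0748 and 0.0761) and replicate 1 of WT at 12 hpf (0.0528), and without the block (0.198, the highest of 15 alternatives, lowest 0.0138).

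**Figure D2:**
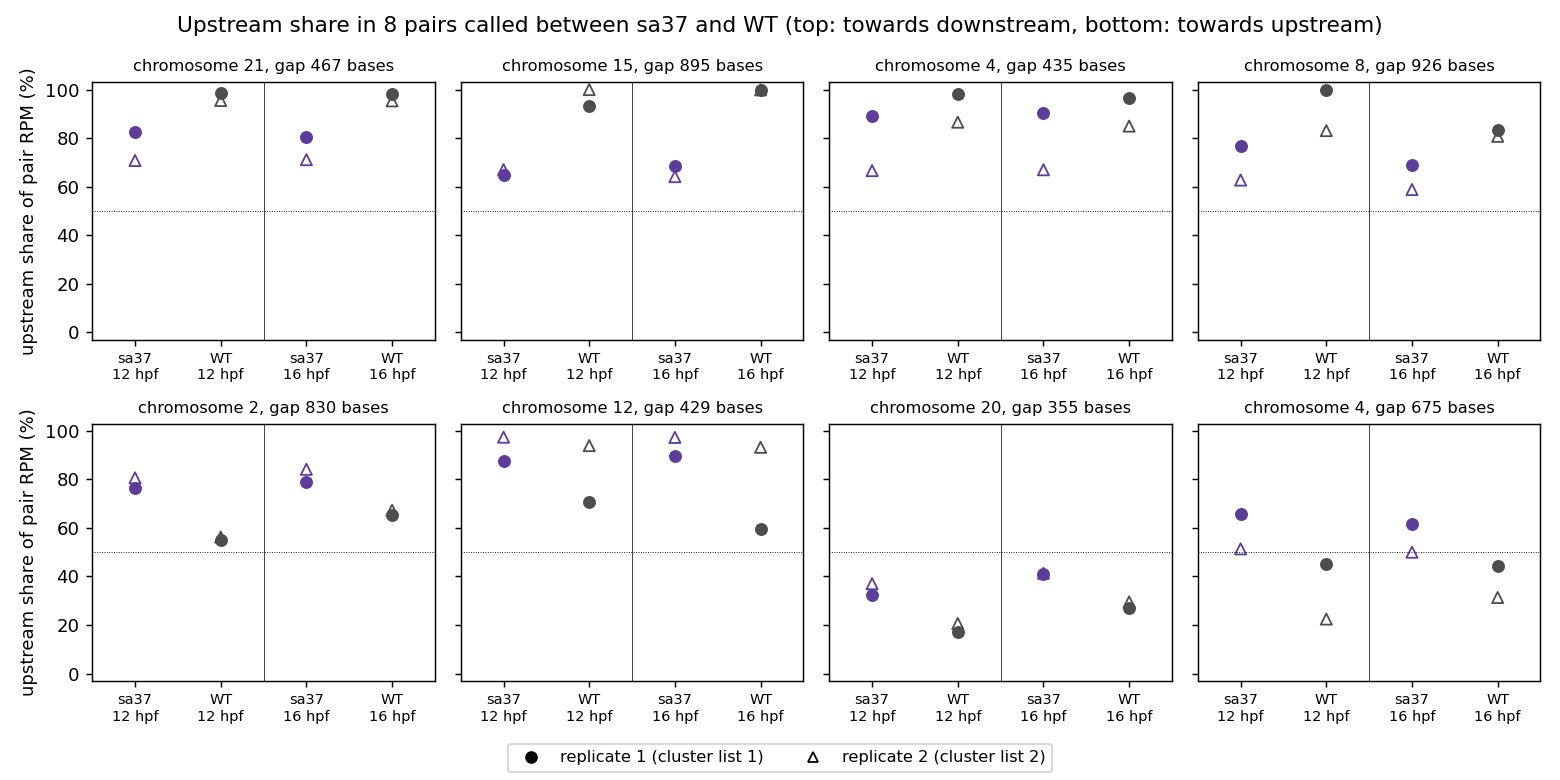
Upstream share of the pair's RPM (vertical, percent) in each library of 8 pairs called between sa37 and WT, with sa37 left of WT at each stage. Filled circles are replicate 1 and open triangles replicate 2, and the dotted line marks 50%. In the top row sa37 lies below WT within each list, as in the chromosome 21 pair with 70.8 to 82.4% in sa37 and 95.4 to 98.4% in WT, and in the bottom row above it. One direction within each list and stage was required for the choice of these pairs.

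Of the shifts towards the upstream start, the one with the smallest adjusted p lay on the minus strand of chromosome 2 (upstream region 3203802 to 3203945, downstream region 3202871 to 3202972). The share of the upstream start was 76.5 and 80.6% in sa37 at 12 hpf and 78.8 and 84.2% in sa37 at 16 hpf, against 54.8 and 56.2% in WT at 12 hpf and 65.3 and 67.3% in WT at 16 hpf, without overlap. The downstream start fell by 1.01 (SE 0.10, limma adjusted p 0.00382), and the upstream start gave 0.23 (SE 0.11, limma adjusted p 0.266). The balance rose by 1.24 (SE 0.13, limma adjusted p 0.00542), with the call lost without the block (0.0958, the highest of 15 alternatives, lowest 8.13e-05).

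On the minus strand of chromosome 12 (15524585 to 15524622 and 15524094 to 15524156) the share was 87.5 and 97.4% in sa37 at 12 hpf and 89.5 and 97.3% in sa37 at 16 hpf, against 70.7 and 93.9% in WT at 12 hpf and 59.7 and 93.2% in WT at 16 hpf. The lists gave different levels: the upstream start was at 41.9 to 60.3 RPM in replicate 1 and 228 to 264 RPM in replicate 2 of sa37, against 27.8 to 40.4 RPM and 138 to 139 RPM in WT. Within each list sa37 was above WT. The pair's balance rose by 1.58 (SE 0.19, limma adjusted p 0.00763), with the call lost without the block (0.86, the highest of 16 alternatives, lowest 0.0008). Neither start was called by itself. The upstream start gave 0.69 (SE 0.16, limma adjusted p 0.0554) and the downstream start -0.88 (SE 0.20, limma adjusted p 0.0504).

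In the pair on the minus strand of chromosome 20 (48773408 to 48773457 and 48772836 to 48773053) the downstream start was the stronger in all 8 libraries. The upstream share was 32.2 and 37.0% in sa37 at 12 hpf and 41.2 and 41.3% in sa37 at 16 hpf, against 16.9 and 20.6% in WT at 12 hpf and 27.1 and 29.5% in WT at 16 hpf, without overlap. The downstream start fell in sa37 by 0.68 (SE 0.12, limma adjusted p 0.0235). In limma the balance rose by 0.86 (SE 0.11, limma adjusted p 0.0112), lost without either replicate of sa37 at 16 hpf (0.0665 and 0.0594), without replicate 1 of WT at 16 hpf (0.0557) and without the block (0.127, the highest of 15 alternatives, lowest 0.00732). The balance of this pair also rose with stage, by 0.40 (SE 0.11, limma adjusted p 0.0432), where its upstream start averaged 3.98 RPM at 12 hpf and passed the level only through 16 hpf.

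The second chromosome 4 pair, on the minus strand (71846858 to 71846941 and 71846149 to 71846183), had shares of 65.6 and 51.4% in sa37 at 12 hpf and 61.7 and 50% in sa37 at 16 hpf, against 45.3 and 22.4% in WT at 12 hpf and 44.2 and 31.3% in WT at 16 hpf. The 4 sa37 shares were all higher, but both starts overlapped between the genotypes in RPM and neither was called. The lists shifted at different starts. In replicate 1 the downstream start was at 3.76 to 4.74 RPM in sa37, against 8.87 to 16.39 RPM in WT, and the upstream start at 7.18 to 7.63 RPM, against 7.03 to 13.57 RPM. In replicate 2 the downstream start was at 13.34 to 13.37 RPM in sa37, against 11.06 to 11.7 RPM in WT, and the upstream start at 13.37 to 14.09 RPM, against 3.385 to 5.045 RPM. The balance rose by 1.13 (SE 0.15, limma adjusted p 0.0116). It was lost without replicate 2 of sa37 at 16 hpf (0.0621), replicate 1 of WT at 16 hpf (0.054), in edgeR (0.398) and without the block (0.4, the highest of 15 alternatives, lowest 0.0114).

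Single starts were tested by themselves on log2(RPM + 1), over all 19000 regions covered by both lists that averaged 1 RPM or more. The starts in close pairs had to average at least 5 RPM. The part of level in the contrasts with all regions was not tested. Of the 858 starts in close pairs, 27 were higher in sa37 (4.74% of all regions) and 22 lower (2.63% of all regions). Under quantile normalization the split turned, with 20 higher and 26 lower, and likewise in edgeR (17 and 20) and DESeq2 (47 and 55). Over all regions more were higher than lower under each of these too, with 698 and 605 under quantile normalization, 466 and 398 in edgeR and 1017 and 902 in DESeq2. In 435 pairs neither start was called, in 36 one start alone (10.3% of all pairs), in 8 both in one direction (0.547% of all pairs) and in 1 pair both in opposite directions (0.282% of all pairs). The median difference of the 858 starts was 0.05 and that of all regions 0.06. Leaving out any 1 library lowered the 49 called starts to between 18 and 29, and without the block 2 were called.

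The pair with opposite calls was picked out after its values were seen. It lay on the minus strand of chromosome 17 (43526962 to 43527010 and 43526020 to 43526092). Its upstream start was at 34.2 and 68.4 RPM in sa37 at 12 hpf and 52.6 and 88.7 RPM in sa37 at 16 hpf, against 19.1 and 45.8 RPM in WT at 12 hpf and 33.3 and 76.8 RPM in WT at 16 hpf. Its downstream start was at 5.47 and 9.39 RPM in sa37 at 12 hpf and 3.82 and 16.2 RPM in sa37 at 16 hpf, against 11.3 and 22.6 RPM in WT at 12 hpf and 23.9 and 35.6 RPM in WT at 16 hpf. Within each list and stage the upstream start was higher in sa37 and the downstream start lower, by 0.56 (SE 0.12, limma adjusted p 0.045) and -1.39 (SE 0.22, limma adjusted p 0.0156). The share was 84.6 to 93.2% in sa37 and 58.3 to 68.3% in WT. Its balance rose by 1.95 (SE 0.29, limma adjusted p 0.0151), lost without replicate 2 of sa37 at 12 hpf (0.061), replicate 1 of WT at 12 hpf (0.0509), replicate 1 of WT at 16 hpf (0.0548) and without the block (0.0694, the highest of 16 alternatives, lowest 0.000653).

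The second comparison asked how the choice between neighbouring starts changed between 12 and 16 hpf. Averaged over the genotypes, 46 close pairs were called (9.58%), against 31.9% of all pairs. Of these, 35 shifted towards the upstream start at 16 hpf (15.7% of all pairs did) and 11 towards the downstream start (16.3% of all pairs did). The median size of the difference was 0.133 over the 480 pairs and 0.332 over all pairs, with median standard errors of 0.141 and 0.151. In sa37 alone 17 were called (15.1% of all pairs), and in WT alone 15 (17.4% of all pairs).

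The change in share of the 46 called pairs ran from 0.0955 to 29.0 percentage points with a median of 6.25. In 22 of them it was under 5 points and in 7 at least 20 points. The weaker start alone was called by itself in 17 and the stronger start alone in 16. In 43 of the 46 the sign was the same in 4 of 4 library pairs, which a call favours and which was required of the pairs named below for a small adjusted p. The upstream start was the stronger in 25 of the 35 shifts towards it and in 6 of the 11 shifts away from it. The downstream start alone was called by itself in 18 of the 46, the upstream start alone in 15, both in 7 and neither in 6. They lay on 18 chromosomes, and 13 had a start under 5 RPM in one stage. The fit without the block called 5 of them (6.5% of all pairs). edgeR, run with the block, called 59 close pairs (37.1% of all pairs), 42 of them among the 46. Leaving out 1 library gave between 15 and 33, and except without replicate 2 of WT at 12 hpf, which gave 33, every omission lowered the count by over 1.5 times. Of the 46, 12 were called in all 8 of those fits. In both comparisons 5 close pairs were called, and the same overlap over all pairs was not counted.

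The shift towards the downstream start with the smallest adjusted p lay on the minus strand of chromosome 24 (upstream region 12794592 to 12794618, downstream region 12794091 to 12794218). The share of the upstream start was 56.0 and 47.9% in sa37 at 16 hpf, against 83.6 and 77.9% in sa37 at 12 hpf. In WT it was 62.8 and 43.2% at 16 hpf, against 84.0 and 76.6% at 12 hpf. The 4 shares at 16 hpf were all below the 4 at 12 hpf. The upstream start was at 92.0 to 133 RPM at 16 hpf, against 306 to 415 RPM at 12 hpf, and fell by 1.70 (SE 0.16, limma adjusted p 0.000846). The downstream start, at 72.2 to 144 RPM at 16 hpf and 60.1 to 122 RPM at 12 hpf, gave 0.21 (SE 0.11, limma adjusted p 0.195). The balance fell by 1.91 (SE 0.15, limma adjusted p 0.00054), called under all 16 alternatives (adjusted p 7.58e-06 to 0.0299).

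A pair on the plus strand of chromosome 2 (58660790 to 58661154 and 58661672 to 58661993) had upstream shares of 13.3 and 26.3% in sa37 at 16 hpf, against 29.0 and 35.6% at 12 hpf. In WT they were 11.9 and 26.2% at 16 hpf, against 23.3 and 41.1% at 12 hpf. Within each list and genotype 16 hpf lay below 12 hpf, and over all libraries the stages overlapped. Its downstream start rose by 0.46 (SE 0.10, limma adjusted p 0.0198) and its upstream start gave -0.52 (SE 0.20, limma adjusted p 0.0979). The pair's balance fell by 0.98 (SE 0.18, limma adjusted p 0.00896), with the call lost without the block (0.348, the highest of 14 alternatives, lowest 0.00431).

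The other 2 named shifts towards the downstream start, both on the minus strand of chromosome 23, were of under 2 percentage points. In the pair at 4769307 to 4769386 and 4769012 to 4769074 the downstream start was at 5.10 and 6.31 RPM in sa37 at 16 hpf, against 1.71 and 3.55 RPM at 12 hpf, and at 9.66 and 10.3 RPM in WT at 16 hpf, against 5.95 and 5.18 RPM at 12 hpf. It rose by 0.84 (SE 0.16, limma adjusted p 0.0121) beside an upstream start at 188 to 259 RPM in all libraries, and the share moved by -1.83 points. This start averaged 4.10 RPM at 12 hpf and passed the level only through 16 hpf, so a difference was built into its choice. The balance fell by 0.90 (SE 0.15, limma adjusted p 0.0072), lost without the block (0.109, the highest of 13 alternatives, lowest 0.000802). This pair was also called between genotypes, with a balance higher in sa37 by 0.73 (SE 0.15, limma adjusted p 0.0402). Its downstream start was lower in sa37 by 0.81 (SE 0.16, limma adjusted p 0.0347). There it averaged 4.17 RPM and passed the level only through WT, so a difference was built into its choice. In the pair at 3816446 to 3816612 and 3815901 to 3815976 the upstream start fell by 0.64 (SE 0.11, limma adjusted p 0.00747), to 3765 to 4173 RPM at 16 hpf, against 5453 to 6977 RPM at 12 hpf. The downstream start was at 8.38 to 12.6 RPM at 16 hpf and 5.13 to 13.9 RPM at 12 hpf. Its balance fell by 0.69 (SE 0.16, limma adjusted p 0.0203) while the share stayed between 99.7 and 99.9% in every library. That call was kept under 9 of 16 alternatives (adjusted p 0.00563 to 0.317) and was lost without either replicate of sa37 at 16 hpf or of WT at 16 hpf, without replicate 1 of sa37 at 12 hpf and without replicate 2 of WT at 12 hpf (0.0506 to 0.0883).

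Of the shifts towards the upstream start, the pair on the minus strand of chromosome 19 (upstream region 5142340 to 5142474, downstream region 5141675 to 5141782) had opposite calls at its starts. The upstream share was 83.9 and 60.3% in sa37 at 16 hpf, against 60.3 and 40.5% at 12 hpf. In WT it was 79.8 and 60.7% at 16 hpf, against 51.7 and 28.8% at 12 hpf. The upstream start was at 111 and 71.3 RPM in sa37 at 16 hpf and 96.2 and 78.0 RPM in WT at 16 hpf, against 55.6 and 57.8 RPM in sa37 at 12 hpf and 49.3 and 33.2 RPM in WT at 12 hpf. The downstream start was at 21.3 and 46.9 RPM in sa37 at 16 hpf and 24.4 and 50.4 RPM in WT at 16 hpf, against 36.6 and 84.9 RPM in sa37 at 12 hpf and 46.1 and 82.1 RPM in WT at 12 hpf. The upstream start rose by 0.86 (SE 0.14, limma adjusted p 0.00664) and the downstream start fell by 0.79 (SE 0.11, limma adjusted p 0.00336). In limma the balance rose by 1.65 (SE 0.14, limma adjusted p 0.000651), with the call lost without the block (0.191, the highest of 15 alternatives, lowest 5.24e-06).

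The second chromosome 24 pair, on the minus strand (16994813 to 16995228 and 16993915 to 16993992), also had opposite calls. Its upstream share was 84.9 and 77.1% in sa37 at 16 hpf, against 69.4 and 53.9% at 12 hpf, and in WT 86.7 and 83.2% at 16 hpf, against 60.3 and 53.6% at 12 hpf. All 4 shares at 16 hpf were above all 4 at 12 hpf. The downstream start averaged 4.86 RPM at 16 hpf and passed the level only through 12 hpf. The upstream start rose by 0.89 (SE 0.11, limma adjusted p 0.0019) and the downstream start fell by 0.69 (SE 0.13, limma adjusted p 0.0119). The balance rose by 1.58 (SE 0.14, limma adjusted p 0.000777), called under all 15 alternatives (adjusted p 9.06e-06 to 0.0246).

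In the pair on the minus strand of chromosome 20 (31594416 to 31594485 and 31593699 to 31593854) the stronger start differed between the stages in both genotypes. The share of the upstream start was 51.3 and 63.1% in sa37 at 16 hpf, against 32.1 and 41.7% at 12 hpf, and in WT 56.1 and 65.6% at 16 hpf, against 33.7 and 38.6% at 12 hpf. The downstream start was at 4.83 to 8.51 RPM at 16 hpf, against 14.1 to 22.8 RPM at 12 hpf, and fell by 1.28 (SE 0.13, limma adjusted p 0.00103), beside an upstream start that gave -0.06 (SE 0.15, limma adjusted p 0.795). The pair's balance rose by 1.22 (SE 0.12, limma adjusted p 0.00108), lost without the block (0.0505, the highest of 15 alternatives, lowest 0.000315).

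The fourth, on the plus strand of chromosome 16 (24063913 to 24064236 and 24064902 to 24064907), moved within 97.9 to 99.5% of share. Its upstream start was at 584 and 990 RPM in sa37 at 16 hpf and 560 and 1195 RPM in WT at 16 hpf, against 178 and 350 RPM in sa37 at 12 hpf and 170 and 509 RPM in WT at 12 hpf. Both starts rose, the upstream one by 1.54 (SE 0.15, limma adjusted p 0.000982) and the downstream one by 0.60 (SE 0.12, limma adjusted p 0.0139). The downstream start averaged 4.41 RPM at 12 hpf and passed the level only through 16 hpf, so a difference was built into its choice. In limma the balance rose by 0.94 (SE 0.13, limma adjusted p 0.00307), lost without the block (0.179, the highest of 14 alternatives, lowest 0.00253).

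**Figure D3:**
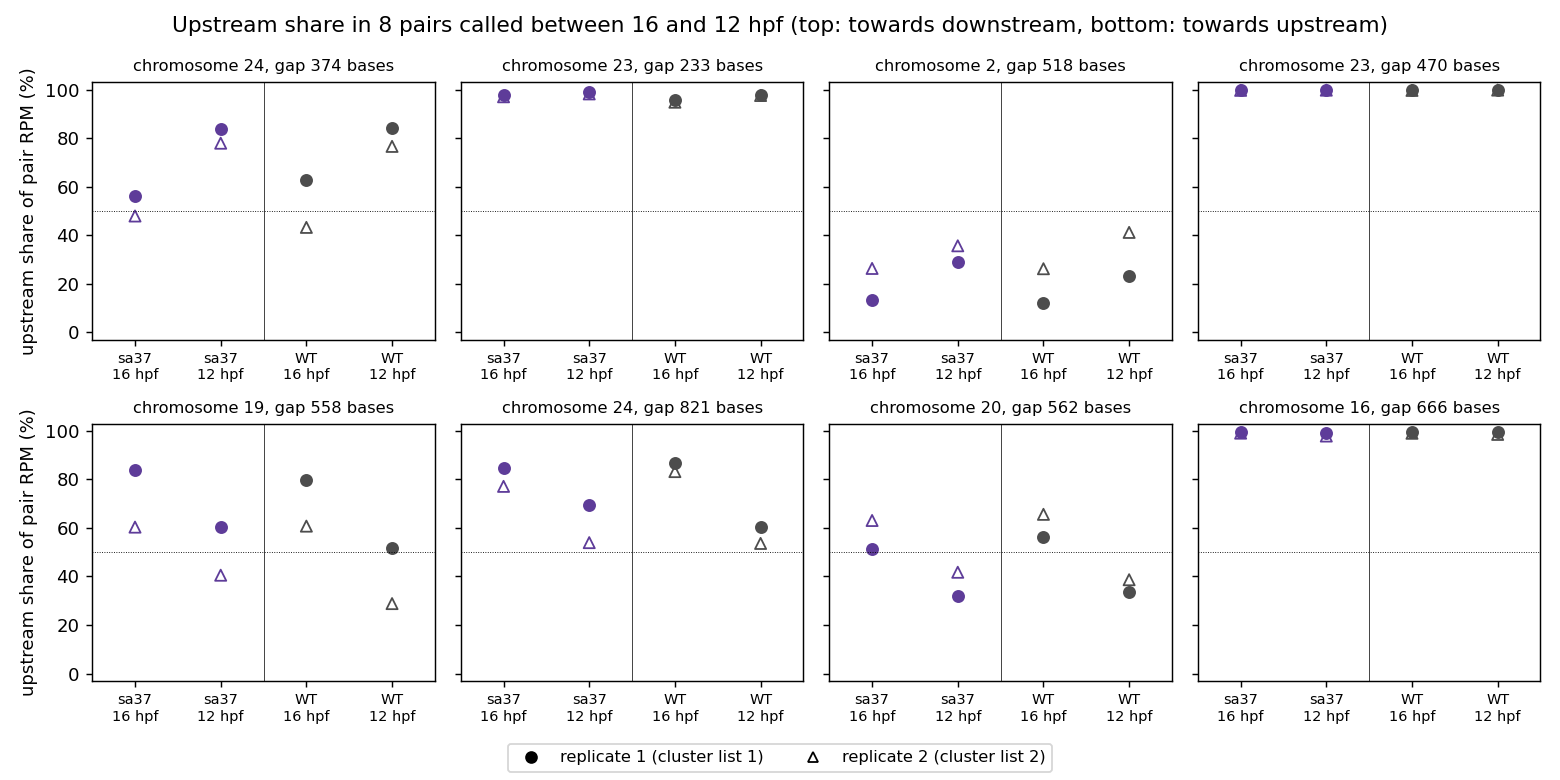
Upstream share of the pair's RPM (vertical, percent) in each library of 8 pairs called between 16 and 12 hpf, with 16 hpf left of 12 hpf in each genotype. Filled circles are replicate 1 and open triangles replicate 2, and the dotted line marks 50%. The chromosome 24 pair with a gap of 374 bases has 43.2 to 62.8% at 16 hpf and 76.6 to 84.0% at 12 hpf, while both chromosome 23 pairs and the chromosome 16 pair stay above 94%.

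Stage moved both starts of a close pair in the same direction more often than it moved them apart. In 75 of the 480 pairs both starts were called in one direction (6.32% of all pairs), in 3 in opposite directions (2.38% of all pairs) and in 107 one start was called alone (37.5% of all pairs). In 295 neither was. Of the 75, both starts were higher at 16 hpf in 32 and lower in 43, against 581 and 159 over all pairs. Of the 858 single starts 111 were higher (20.2% of all regions) and 122 lower (7.73% of all regions). The split depends on the scaling, as quantile normalization gave 78 higher and 170 lower among them and 2681 higher and 2463 lower among all regions, and moved the median difference of all regions to -0.05, against 0.09 as deposited. Among the 858 starts edgeR called 59 higher and 185 lower, against 2156 and 1892 among all regions, and DESeq2 105 and 228, against 2726 and 2400. The median of the 858 starts was -0.03 as deposited and -0.13 after quantile normalization. Under both it lay below that of all regions, which go down to a mean of 1 RPM. Leaving out 1 library gave between 82 and 180 called starts in place of 233. The count fell by over 1.5 times without either replicate of sa37 at 16 hpf (82 and 129), either of WT at 16 hpf (112 and 126) and replicate 1 of WT at 12 hpf (130). Without the block it was 10.

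Of the 3 pairs with opposite calls between stages, picked out after their values were seen, 2 are the chromosome 19 and chromosome 24 pairs above. The third lay on the plus strand of chromosome 18 (41242497 to 41242579 and 41243293 to 41243328). Its upstream share was 79.0 and 78.8% in sa37 at 16 hpf, against 65.3 and 68.6% at 12 hpf, and in WT 79.8 and 79.2% at 16 hpf, against 70.3 and 68.2% at 12 hpf. The lists gave nearly equal shares here, and the stages did not overlap. The upstream start rose by 0.36 (SE 0.10, limma adjusted p 0.0462) and the downstream start fell by 0.45 (SE 0.10, limma adjusted p 0.0167). The balance rose by 0.81 (SE 0.12, limma adjusted p 0.00463), called under all 16 alternatives (adjusted p 0.00016 to 0.0466).

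**Figure D4:**
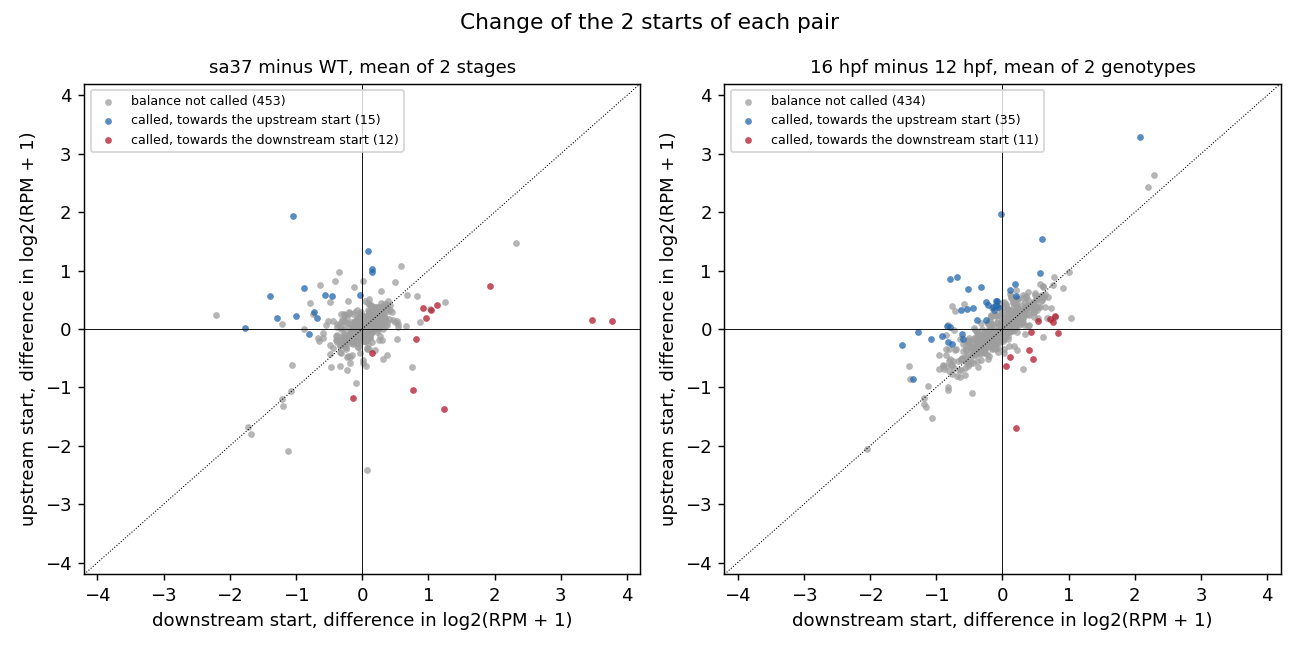
Fitted difference in log2(RPM + 1) of the downstream start (horizontal) and the upstream start (vertical) of each of the 480 close pairs, for sa37 minus WT (left) and 16 minus 12 hpf (right). Blue points are balances called towards the upstream start (15 and 35), red ones towards the downstream start (12 and 11), and the dotted line marks equal change. In the right panel points lie along the dotted line, and in the left panel they gather around 0.

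How far the 2 starts moved together was set against the gap, over classes chosen after seeing the data. The 2 starts of a pair share libraries and depth, and the correlations given here run across pairs, which are not independent. For stage, the differences of the 2 starts correlated with r of 0.729 over the 480 close pairs, 0.452 over 73 pairs with gaps under 100 bases, 0.616 over 881 pairs at over 1000 and up to 5000 bases, 0.115 over 3029 pairs at over 5000 and up to 50000 bases and -0.0077 over 7241 pairs further apart. For genotype, r was 0.27 over the close pairs, 0.595 under 100 bases, -0.01 at up to 5000 bases, 0.026 at up to 50000 bases and 0.0087 beyond. The sign told less of a drop past 1000 bases. Both starts differed between genotypes with one sign in 69.9% of pairs under 100 bases, 68.1% of close pairs and 67.0% at up to 5000 bases. It was 54.3% at up to 50000 bases and 53.5% beyond. The share of pairs with a called balance between stages was 2.74% under 100 bases, 9.58% in close pairs, 12.9% at up to 5000 bases, 30.7% at up to 50000 bases and 36.5% beyond. Between genotypes the same shares, in the same order, were 9.59, 5.62, 8.17, 9.84 and 9.03%, with the lowest in close pairs.

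**Figure D5:**
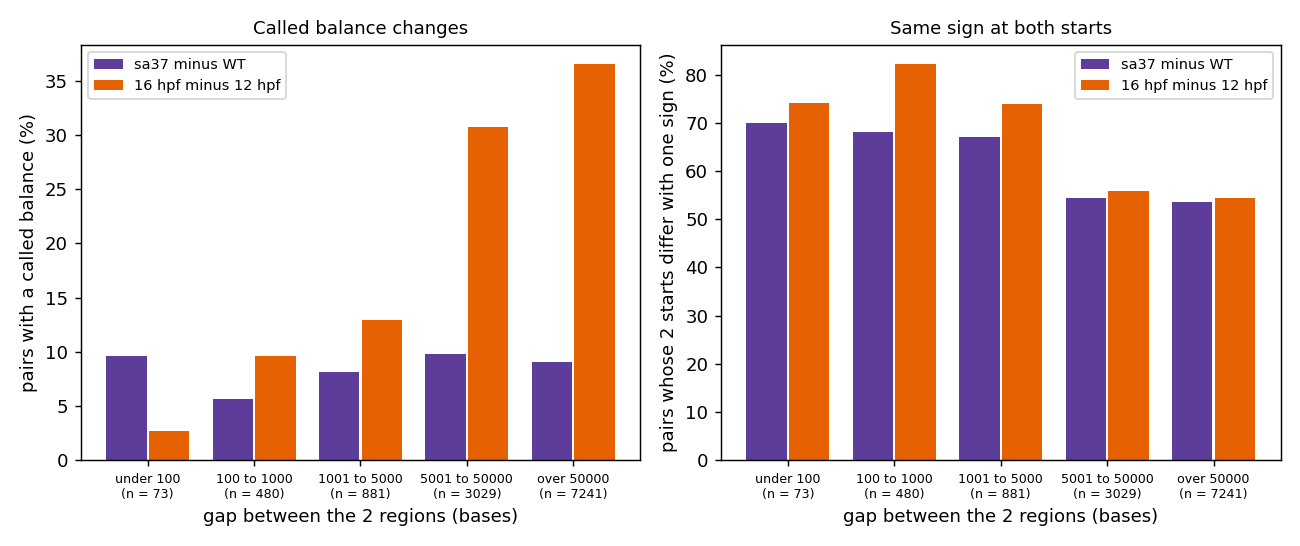
Percentage of pairs with a called balance (left) and percentage whose 2 starts differed with the same sign (right) by the gap between the regions in bases, for sa37 minus WT and 16 minus 12 hpf. n is the number of pairs in each class, and pairs of 100 to 1000 bases are the close pairs. Between stages the called share lies at 9.58% for close pairs and 36.5% for gaps over 50000 bases, and the same sign at 82.1% and 54.4%. Between genotypes the same sign lies at 68.1% and 53.5%.

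Whether a pair's stronger start differed between groups was counted without a test, as a share over 50% in both libraries of one group and under 50% in both of the other. Between sa37 and WT 10 close pairs met this at one stage or the other (3.62% of all pairs), 7 at 12 hpf and 4 at 16 hpf, and 4 of the 10 had a called balance. Between 16 and 12 hpf 10 met it in one genotype or the other (6.31% of all pairs), 7 in sa37 and 4 in WT, and 5 of the 10 had a called balance. A share near 50% can cross it with a small change, as several of the most abundant cases did.

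The 4 of highest level between genotypes were on chromosomes 19, 18, 24 and 14. The pair on chromosome 18 (48764110 to 48765135, plus strand) had shares of 49.1 and 47.2% in sa37 at 12 hpf and 48.3 and 46.2% in sa37 at 16 hpf, against 60.8 and 54.9% in WT at 12 hpf and 58.3 and 57.6% in WT at 16 hpf. Its balance fell by 0.55 (SE 0.11, limma adjusted p 0.0394), a call kept under 5 of 16 alternatives (adjusted p 0.0345 to 0.501) and lost without any 1 of the 8 libraries (0.0684 to 0.154). The pair on chromosome 14 (46649363 to 46649766, minus strand) had 64.2 and 55.5% in sa37 at 12 hpf and 64.2 and 55.0% in sa37 at 16 hpf, against 26.3 and 48.1% in WT at 12 hpf and 28.0 and 50.7% in WT at 16 hpf. The sa37 shares were all higher, by more in replicate 1 than in replicate 2, and the balance was not called (1.24, SE 0.38, limma adjusted p 0.102). The pair's upstream start was called higher in sa37, by 0.82 (SE 0.12, limma adjusted p 0.0126). Its downstream start gave -0.42 (SE 0.43, limma adjusted p 0.604), with the lists in opposite directions. In replicate 1 it was at 12.0 to 13.7 RPM in sa37, against 36.9 to 37.7 RPM in WT. In replicate 2 it was at 11.9 to 16.2 RPM, against 7.48 to 9.94 RPM. The pairs on chromosome 19 (43524836 to 43525277, plus strand) and chromosome 24 (21477364 to 21477624, plus strand) had shares of 46.4 to 64.9% in sa37 and 50.1 to 55.6% in WT, which overlap, and neither balance was called (limma adjusted p 0.658 and 0.821).

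The chromosome 19 pair was also among the 4 of highest level between stages. The second was on the minus strand of chromosome 4 (upstream region 12863243 to 12863442, downstream region 12862701 to 12863043), and both of its starts rose steeply. Its upstream start was at 34.9 and 49.1 RPM in sa37 at 16 hpf and 48.1 and 52.3 RPM in WT at 16 hpf, against 2.22 and 6.01 RPM in sa37 at 12 hpf and 2.67 and 5.40 RPM in WT at 12 hpf. Its downstream start was at 36.0 and 35.1 RPM in sa37 at 16 hpf and 30.7 and 38.5 RPM in WT at 16 hpf, against 5.89 and 9.73 RPM in sa37 at 12 hpf and 5.02 and 10.7 RPM in WT at 12 hpf. The upstream start rose by 3.28 (SE 0.17, limma adjusted p 0.000174) and the downstream one by 2.08 (SE 0.17, limma adjusted p 0.000585). The upstream start averaged 4.08 RPM at 12 hpf and passed the level only through 16 hpf, so a difference was built into its choice. The upstream share was 49.3 to 61.0% at 16 hpf and 27.4 to 38.2% at 12 hpf. Its balance rose by 1.20 (SE 0.17, limma adjusted p 0.00415), called under all 15 alternatives (adjusted p 0.00317 to 0.0324).

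The third was on the plus strand of chromosome 3 (33990721 to 33990793 and 33991638 to 33991645). The share of the upstream start was 42.8 and 56.7% in sa37 at 16 hpf, against 29.9 and 33.1% at 12 hpf, and in WT 61.9 and 57.9% at 16 hpf, against 29.7 and 37.4% at 12 hpf. The downstream start, at 3.91 to 12.2 RPM at 16 hpf and 17.4 to 34.3 RPM at 12 hpf, fell by 1.51 (SE 0.11, limma adjusted p 0.000428). In limma the balance rose by 1.24 (SE 0.17, limma adjusted p 0.00345), called under all 16 alternatives (adjusted p 0.000219 to 0.0362). The fourth, on the minus strand of chromosome 5 (827358 to 827725 and 826349 to 826620), had an upstream share of 14.8 and 73.2% in sa37 at 16 hpf, against 31.1 and 51.6% at 12 hpf. In WT the share was 59.3 and 69.5% at 16 hpf, against 0 and 18.3% at 12 hpf. The 0% is a listed 0 at the upstream start in replicate 1, a library with no value between 0 and 0.55 RPM. In sa37 the 2 lists thus moved in opposite directions. Its balance rose by 1.99 on average (SE 0.47, limma adjusted p 0.023), by 3.92 in WT (limma adjusted p 0.0132) and by 0.07 in sa37 (limma adjusted p 0.961), and the interaction was not called (limma adjusted p 0.955). The averaged call was lost without replicate 2 of sa37 at 12 hpf (0.0786), replicate 1 of WT at 12 hpf (0.077), replicate 1 of WT at 16 hpf (0.0691) and without the block (0.313, the highest of 15 alternatives, lowest 0.0129).

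A last comparison asked if sa37 and WT differed in balance equally at both stages. limma called 0 close pairs for the interaction (0.0% of all pairs). It gave 15 of the 480 an unadjusted p under 0.05 (3.12%, against 4.61% of all pairs). Both shares are below what that threshold gives by chance alone. edgeR also called 0 (0.0% of all pairs), with 15 of the 480 at an unadjusted p under 0.05. Without replicate 1 of WT at 12 hpf 1 pair was called. The smallest p belonged to a pair on the minus strand of chromosome 22 (18519518 to 18519522 and 18518828 to 18519130), where the genotype difference changed by -1.24 between the stages (SE 0.25, unadjusted limma p 0.00243, adjusted p 0.955). Its lists disagreed, with an upstream share in replicate 1 of 4.7% in sa37 at 12 hpf and 0% in the other 3 libraries, and in replicate 2 of 68.3% in sa37 at 12 hpf, 53.0% in sa37 at 16 hpf, 55.3% in WT at 12 hpf and 58.0% in WT at 16 hpf. The second was on the minus strand of chromosome 1 (7966784 to 7966977 and 7965591 to 7965849), where it changed by 1.40 (SE 0.30, unadjusted limma p 0.00298, adjusted p 0.955). Its upstream share was 27.3 and 45.5% in sa37 at 12 hpf and 44.5 and 64.0% in sa37 at 16 hpf, against 58.5 and 60.04% in WT at 12 hpf and 36.8 and 51.3% in WT at 16 hpf. In replicate 1 both of its starts were at 0.77 to 2.95 RPM, near the lowest values that list holds.

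The 3 close pairs of highest level all lay in one run of 16 regions on the plus strand of chromosome 4, from 76319684 to 76325258, in which no gap exceeded 1000 bases. The run held 4.18 to 10.6% of the RPM of all regions that reached the level, and 7 close pairs. Its other gaps were under 100 bases. Such a gap lay between the regions ending at 76321879 and starting at 76321885, which belong to 2 of the 3 pairs. How far the shares depend on where the clusters were cut was not tested. The upstream share was 2.41 to 3.15% in the pair at 76321885 to 76322449, with 9027 to 27010 RPM at the downstream start. It was 96.7 to 99.2% in the pair at 76322809 to 76324048 and 95.9 to 97.1% in the pair at 76321207 to 76321879. In all 3 pairs the dominant start took over 95% in every library, and the genotypes and stages overlapped. None of the 3 balances was called for genotype (limma adjusted p 0.638 to 0.822) or stage (0.586 to 0.987). Both starts of each pair fell with stage, by 0.57 to 0.81 (limma adjusted p 0.00604 to 0.0289). Of the 7 close pairs of the run, 2 were called between genotypes, among them the chromosome 4 pair at 76320718 described above, and 0 between stages. Whether tags in this run map to a single place in the genome was not tested.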

How the data were processed

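CAGE was read in 8 libraries of whole zebrafish embryos. The authors deposited RPM values per tag cluster, in 2 lists with separate clusters and normalization, and the submitters' processing notes name the build danRer10, BWA and HISAT2. Which list used which tool is not given in the sources used here. The low RPM values as deposited were whole multiples of 1 tag in 100% of cases in every library, and tags were recovered from them for edgeR and DESeq2 only. The balance test of edgeR on those tags, with the replicate number as a block, called 42 close pairs between genotypes and 59 between stages (14.1 and 37.1% of all pairs).

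Repeated rows (412 in list 1 and 796 in list 2) were dropped, same-strand overlapping clusters of both lists were merged, and their RPM values were summed. Coordinates are as in the files, whose counting base is not stated, with the end read as exclusive in the gap. Region names, sequences and genes of this build were not used here.

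limma was fitted with 4 group means and the replicate number as a block, with p-values two-sided and adjusted over all 11704 pairs. The block is in the reported fit because each replicate number has its own list. The fit with no replicate block called 2 close pairs between genotypes and 5 between stages (0.863 and 6.5% of all pairs). Deviations of same-numbered libraries from their group means correlated with r of 0.704 to 0.857 over all pairs. On simulated data with 200 pairs changed 4-fold in sa37 against WT averaged over stages, among 11704 pairs, limma with the block called 99.5% of them, with 7.0% of its calls among unchanged pairs. Without the block limma called 0.0%. edgeR, run with the block, called all, with 18.0% of its calls among unchanged pairs. In the simulation, libraries of one replicate number shared one mean per start apart from the set change, and one spread was used throughout. The block thus matched the simulated data by their making, so these rates cannot show how well it suits the real pairs.

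Named pairs were, for each direction of both averaged comparisons, the 4 called pairs with the smallest adjusted p and one sign in 4 of 4 library pairs, sharing no region. To them were added the 2 smallest interaction p, the 4 highest pairs whose stronger start differed, the 3 highest pairs and those at the bounds. Pairs with opposite calls were added after their values were seen. The pairs and lists were chosen with earlier results of these data known. R 4.3.3, limma 3.58.1, edgeR 4.0.16, DESeq2 1.42.0 and Python 3.11.15 were used.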

Additional observations from a re-analysis of the deposited data

Results flagged for a closer look

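The fitted sa37 minus WT difference in balance had opposite signs at 12 and 16 hpf in 10 of the 33 named pairs, and in 5 of these both lists gave the opposite signs. None of the 10 was called for the change between the stages. The widest change, on chromosome 5 (826349 to 827725), was -3.85 (unadjusted limma p 0.00612, adjusted p 0.955), but there the lists did not give one sign at 16 hpf. The 5 pairs whose lists gave one sign at each stage follow. On chromosome 22 (18518828 to 18519522) the difference was 0.93 at 12 hpf and -0.31 at 16 hpf, a change of -1.238 (unadjusted limma p 0.00243, adjusted p 0.955). On chromosome 1 (7965591 to 7966977) it was -0.90 at 12 hpf and 0.50 at 16 hpf, a change of 1.398 (unadjusted limma p 0.00298, adjusted p 0.955). These pairs on chromosomes 22 and 1 were chosen for their small interaction p. In replicate 1 the upstream start on chromosome 22 was at 0.51 RPM in sa37 at 12 hpf and listed at 0 in each other group. Its sign in that list at 16 hpf thus came from the downstream start alone, at 13.4 RPM in sa37 and 10.2 RPM in WT. On chromosome 24 (16993915 to 16995228) the change was -0.5692 (unadjusted limma p 0.0905, adjusted p 0.955), on chromosome 16 (24063913 to 24064907) it was 0.4222 (unadjusted limma p 0.143), and on chromosome 4 (76321207 to 76321879) it was -0.237 (unadjusted limma p 0.323, adjusted p 0.982).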

How the results depend on the processing

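Called balances numbered 8, 3 and 27 between genotypes (12 hpf, 16 hpf, averaged), against 3.3, 1.67 and 9.04% of all pairs. Between stages (WT, sa37, averaged) they numbered 15, 17 and 46, against 17.4, 15.1 and 31.9% of all pairs. With no replicate block they were 0, 0 and 2 (0.265, 0.197 and 0.863% of all pairs), and 0, 0 and 5 (1.59, 1.45 and 6.5% of all pairs). In the 4 comparisons at 0, limma without the block gave 16, 10, 10 and 12 of the 480 close pairs with an unadjusted p under 0.05. Each of these counts is below what that threshold gives by chance alone. edgeR, which was run only with the block, called 17, 11, 23 and 32 in those 4 (7.09, 3.77, 23.8 and 21.5% of all pairs). The averaged genotype count was 42 in edgeR (14.1% of all pairs). With no filter on the mean RPM, which gives 2009 close pairs, the counts were 9 at 16 hpf (1.75% of all pairs) and 59 averaged (6.78%). Between stages they were then 27, 35 and 109 (8.88, 8.32 and 20.1% of all pairs). At a mean of at least 10 RPM, which leaves 294 close pairs, they were 2 at 12 hpf (2.43% of all pairs) and 11 averaged (8.41%) between genotypes. Between stages they were 10 in sa37 (14.8% of all pairs) and 25 averaged (32.2%). Without 1 library they ranged over 1 to 6, 1 to 6 and 9 to 17 between genotypes, and over 4 to 18 in WT, 0 to 17 in sa37 and 15 to 33 averaged between stages. The 0 came without replicate 1 of sa37 at 16 hpf, with 32 close pairs at an unadjusted p under 0.05 in limma. The interaction gave 0 to 1.

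Of single starts, 49 were called between genotypes and 233 between stages. No replicate block gave 2 and 10, and a pseudocount of 0.1 RPM gave 13 and 149. Between genotypes a pseudocount of 0.5 RPM gave 30, an intensity trend 79 and DESeq2 102. Without 1 library the counts were 18 to 29 and 82 to 180. Pairs whose stronger start differed, 10 between genotypes and 10 between stages, were 34 and 28 with no filter and 5 and 5 at 10 RPM.

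For the named pairs, 376 values kept their direction and side of the threshold, 47 lost the call and 1 turned: the chromosome 24 pair at 21477364 gave -0.108 without replicate 1 of sa37 at 12 hpf and up to 0.262 without another library (its replicate 2), neither of them called. The cause was not tested. The 376 include values of pairs that were not called in the main fit and so had no call to lose. Most of the named pairs that were called in the main fit lost the call without the replicate block. Values under 0.51 RPM in replicate 1 are beyond what that list shows.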

Other observations

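Clusters of a single list can also lie near a start of both lists. Of 307 regions of list 1 alone that averaged 5 RPM or more in its 4 libraries, 93 lay 100 to 1000 bases from such a start on the same strand, and of 87 regions of list 2 alone, 18 did. In 0 of these was the region found in one genotype only.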
